A study of Mus musculus with 15 samples.

Results

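The genes described here are 10 transcription factors that set up and maintain the myeloid lineage. Chosen by name with earlier results of these data known, they are Spi1, Runx1, Runx3, Cebpa, Cebpb, Cebpd, Gfi1, Klf2, Klf4 and Ikzf1. They are 10 of the 50554 genes counted, and all 10 had reads in every library and passed the filter on low counts that left 20865 genes for testing. Their RNA was measured by sequencing total RNA, after ribosomal RNA depletion, from mouse bone marrow-derived dendritic cells (BMDCs), which are grown from marrow with GM-CSF. All the mice carried a tamoxifen-inducible Cre (CreERT2) and 1 floxed allele of Mysm1, a gene for a deubiquitinase of histone H2A, and all were treated with tamoxifen more than 12 weeks before their marrow was taken. The second Mysm1 allele was wild type in Δ/+ mice and coded for catalytically inactive MYSM1 in Δ/DN mice. After 9 days of culture the cells were kept for 18 h unstimulated (US) or with 10 ng/mL of lipopolysaccharide (LPS), a bacterial cell wall component sensed by dendritic cells through the receptor TLR4. There were 4 unstimulated Δ/+, 3 LPS Δ/+, 4 unstimulated Δ/DN and 4 LPS Δ/DN libraries, from 8 cultures of which 7 gave both treatments. The ages of the mice and whether each culture came from a separate mouse were not stated, so p-values measure the spread between these libraries.

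Genotypes are as labelled on the samples. The description of the series attaches the lettered mouse groups to the opposite genotypes, so every direction between genotypes would turn round if that description holds. Total Mysm1 reads did not pass the test in either genotype comparison, with an adjusted p of 0.213 without and 0.299 with LPS, and cannot tell the alleles apart. Libraries held 37256651 to 104041282 counted reads. All 15 dendritic cell markers examined had reads in each group, and their summed level was 6020 to 9560 CPM (read counts scaled to a common library total, here after TMM normalisation) without LPS and 10100 to 16700 CPM with it. Cd74 alone had group means of 3370 to 6590 CPM, and Xcr1 of 0.0314 to 0.652 CPM. All 10 macrophage markers examined also had reads in each group, with sums of 1710 to 2270 CPM without and 1480 to 2130 CPM with LPS. Δ/DN culture 3 stood apart. Over the 10 genes its unstimulated library lay 0.605 from its group mean (root mean square, log2 scale), where the other libraries lay 0.151 to 0.471 away. It was the highest of its group for 6 of the 10 genes, as the Δ/+ US library of culture 4 was for 7. In culture 3 the Y-linked Ddx3y was at 1.94 CPM without and 3.69 CPM with LPS, and it was at 0 reads in Δ/DN culture 4 and at 47.2 CPM or more in every other library. Low Ddx3y was thus seen only in Δ/DN libraries, so the genotype groups were not balanced for it. Δ/DN cultures 3 and 4 were also the only Δ/DN cultures of library set 3, named by a prefix of the library names. The only Δ/+ library of that set, US replicate 4, held Ddx3y at 79.9 CPM. Low Ddx3y and library set, a term of the model, therefore cannot be told apart within Δ/DN. The bearing of Ddx3y on the genotype differences below was not tested. Values without culture 3 are given beside the genotype results as a description only, because the culture was set apart in part by these same genes.

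PU.1, the product of Spi1, is an ETS-family factor that opens myeloid enhancers and works together with C/EBP and RUNX proteins at them. C/EBPα drives granulocyte and macrophage fate in progenitors, while C/EBPβ and C/EBPδ take part in inflammatory gene expression in mature cells. RUNX1 is needed for blood cell formation, and RUNX3 restrains the maturation of mouse dendritic cells. Gfi1 codes for a repressor known for its part in neutrophil development, Klf4 for a factor of monocyte differentiation, Klf2 for a regulator of quiescence in lymphocytes, endothelium and myeloid cells, and Ikzf1 for the zinc finger protein Ikaros of lymphoid and dendritic cell development.

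Promoters of 8 of the 10 genes, in 12 entries, were found in the RefSeq table for the mouse build GRCm38.p6, and those of 3 genes are shown over the 250 bases before the start because they cover a gene that rose with LPS, a gene that fell and the gene that differed between the genotypes with LPS. Capitals mark matches, on either strand, to a KLF/SP motif (GGGNGNGG), a RUNX motif (TGTGGT or TGCGGT), a C/EBP motif (TTGCNNAA) or an ETS motif (AGGAAGT). Cebpb, whose RNA rose with LPS, lies at chr2:167688665-167688914 on the plus strand, Cebpa, whose RNA fell, at chr7:35119043-35119292 on the plus strand, and the first Runx3 promoter at chr4:135120395-135120644 on the plus strand. For Gfi1, the gene with the steepest rise, 30 bases around its C/EBP match are shown, at chr5:107725930-107725959 on the minus strand.
Cebpb: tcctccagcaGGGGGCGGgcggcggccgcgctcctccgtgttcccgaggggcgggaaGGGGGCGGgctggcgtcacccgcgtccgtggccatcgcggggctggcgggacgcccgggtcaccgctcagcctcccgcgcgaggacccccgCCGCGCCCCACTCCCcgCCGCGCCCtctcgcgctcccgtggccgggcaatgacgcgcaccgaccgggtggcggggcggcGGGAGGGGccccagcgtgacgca
Cebpa: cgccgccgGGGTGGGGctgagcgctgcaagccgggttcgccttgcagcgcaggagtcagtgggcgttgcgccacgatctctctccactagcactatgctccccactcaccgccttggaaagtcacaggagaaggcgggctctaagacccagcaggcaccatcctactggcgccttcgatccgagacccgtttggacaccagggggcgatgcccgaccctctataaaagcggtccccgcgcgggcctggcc
Runx3: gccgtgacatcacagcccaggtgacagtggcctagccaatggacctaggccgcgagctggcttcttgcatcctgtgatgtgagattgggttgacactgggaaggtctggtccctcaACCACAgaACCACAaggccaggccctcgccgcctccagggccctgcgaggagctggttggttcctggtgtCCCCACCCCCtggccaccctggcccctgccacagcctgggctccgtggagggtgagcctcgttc
Gfi1: cgaaggtaggtTTGCTGAActgctgtgcct

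Among these 4, Cebpb held 6 KLF/SP matches and Cebpa held 1. The first Runx3 promoter held 2 RUNX matches, both read as ACCACA, at 134 and 126 bases before the start. A RUNX match was present in 1 of the 12 entries and in 18.6% of all 32851 mouse promoters of that length. The C/EBP match of Gfi1, TTGCTGAA, was likewise the only one in the 12 entries, while 9.56% of all promoters held one. KLF/SP matches occurred in 11 of the 12 entries and in 45.9% of all promoters. An NF-kB motif, not marked by capitals, occurred in 9 of the 12 entries and in 45.8% of all promoters, and overlapped KLF/SP matches in Cebpb, Gfi1, Klf2, Klf4, Runx1 and Runx3. No ETS match was found in these windows, where 7.69% of all promoters held one, and none of AP-1 (TGANTCA, 6.75%), IRF (2.98%) or CRE (TGACGTCA, 1.55%). Each match describes letters in a window and is not evidence of binding.

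Levels between genes were compared as CPM per kb of annotated exon. Cebpb was the highest of the 10 in all 4 groups, at 125 ± 26.2 CPM per kb (SD, n = 4) in unstimulated Δ/+ and 196 ± 18.6 (SD, n = 3) in LPS Δ/+ libraries, and Spi1 was next at 88.5 ± 10.6 (SD, n = 4) and 79.1 ± 13.4 (SD, n = 3) CPM per kb. Their ranges were apart in each group except unstimulated Δ/DN, where Cebpb spread from 55.1 to 169 CPM per kb and overlapped Spi1. Cebpa came next without LPS, at 23.0 ± 4.67 CPM per kb (SD, n = 4) in Δ/+, and was above only 1 other gene with LPS in both genotypes. Ikzf1 came after Cebpb and Spi1 with LPS, at 55.0 ± 9.25 CPM per kb (SD, n = 3) in Δ/+ and 60.5 ± 13.5 (SD, n = 4) in Δ/DN. Gfi1 was the lowest without LPS, at 0.214 ± 0.0943 CPM per kb (SD, n = 4) in Δ/+ and 0.307 ± 0.190 (SD, n = 4) in Δ/DN, below the range of every other gene. With LPS, Runx1, Runx3, Klf2 and Klf4 together spanned 2.29 to 10.6 CPM per kb and the ranges of any pair of them overlapped in both genotypes. This order depends on the gene lengths used. With the lengths in the deposited files, Spi1 was above Cebpb in unstimulated Δ/+ (57.0 and 41.1 CPM per kb) and in both Δ/DN groups, and Cebpa was the lowest of the 10 with LPS in both genotypes. Gfi1 was the lowest without LPS with those lengths too.

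**Figure D1:**
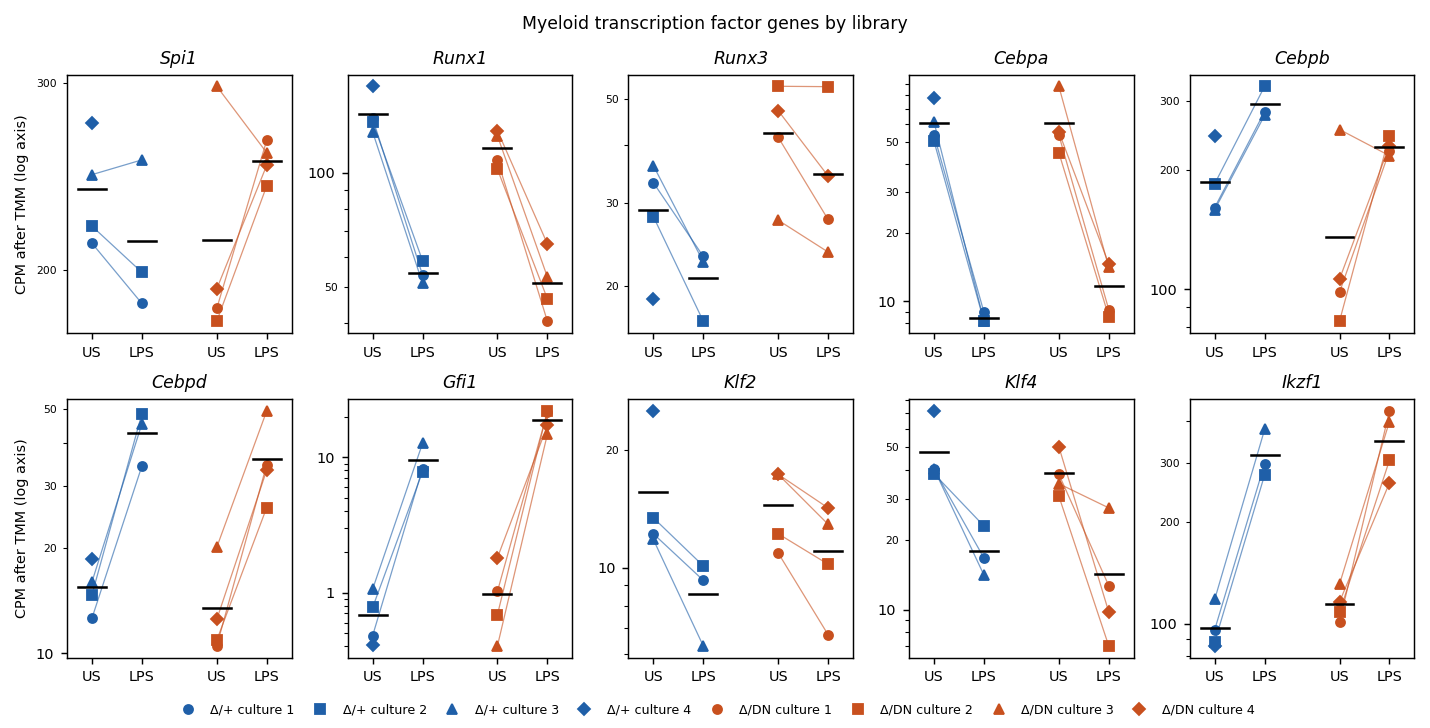
Level of each of the 10 genes in each library, in CPM after TMM scaling on a log axis whose range differs by panel. Lines join the US and LPS library of a culture and black bars mark group means. Runx1, Cebpa and Klf4 lie lower with LPS and Cebpd, Gfi1 and Ikzf1 higher with LPS in all 7 cultures, and the unstimulated library of Δ/DN culture 3 is the highest of its group for Spi1 and Cebpb.

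LPS changed the levels of most of these factors. Of the 10 genes, 4 rose (Cebpb, Cebpd, Gfi1 and Ikzf1) and 4 fell (Runx1, Cebpa, Klf2 and Klf4) in Δ/+ cells, and the same 8 were called in the same directions in Δ/DN cells. Calls are at an adjusted p under 0.05 in edgeR's quasi-likelihood test with Benjamini-Hochberg adjustment over all genes tested, which is the test behind every adjusted p here unless another is named. LPS moved a large part of the transcriptome: 47.7% of all genes tested were called in Δ/+, 22.4% higher and 25.3% lower, and 48.2% in Δ/DN, 23.1% higher and 25.1% lower. The 8 in 10 called here stand beside those shares as a description only, because the genes were chosen with earlier results of these data known. The median size of the log2 difference was 1.25 in Δ/+ and 1.30 in Δ/DN over the 10 genes, beside 0.61 and 0.55 over all genes tested. In both genotypes the groups did not overlap for Runx1, Cebpa, Klf4, Cebpd, Gfi1 and Ikzf1, while 52.1% of all genes tested did not overlap in Δ/+ and 40.9% in Δ/DN.

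These directions depend on how libraries are put on a common scale. TMM factors were 1.04 to 1.33 in unstimulated and 0.734 to 0.94 in LPS libraries, and scaling by total reads instead moved the median log2 LPS difference of all genes from -0.08 to -0.73 in Δ/+ and from -0.09 to -0.67 in Δ/DN. That setting called 2317 genes higher and 11211 lower in Δ/+, where TMM called 4664 and 5287, and 2361 higher and 11185 lower in Δ/DN, where TMM called 4824 and 5228. Under it Cebpd, Gfi1 and Ikzf1 were still called higher and Runx1, Cebpa, Klf2 and Klf4 lower in both genotypes, while Cebpb lost its call, at 0.13 (adjusted p = 0.563) in Δ/+ and 0.31 (adjusted p = 0.153) in Δ/DN. Spi1 and Runx3 were then called lower, at -0.76 and -1.22 in Δ/+ and at -0.30 and -0.88 in Δ/DN on the log2 scale. DESeq2's size factors gave medians of -0.03 and -0.04. All values below are on the TMM scale, relative to the bulk of the genes.

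Cebpa fell the most of the 10 genes. It was at 53.5, 50.3, 61.1 and 77.9 CPM in the unstimulated Δ/+ libraries and at 8.97, 8.19 and 8.22 CPM with LPS. In Δ/DN it was at 53.6, 44.9, 87.6 and 55.3 CPM without LPS and at 9.21, 8.58, 14.1 and 14.6 CPM with it. Every LPS library lay below every unstimulated one in both genotypes. The log2 difference was -2.68 ± 0.15 (SE, adjusted p = 7.5e-09) in Δ/+, a 6.41-fold lower level, and -2.39 ± 0.13 (SE, adjusted p = 6.8e-09) in Δ/DN, 5.24-fold lower. Within the 7 cultures the fall ranged from 3.79-fold to 7.43-fold.

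Cebpd and Cebpb moved the other way. Cebpd, a gene known to be induced early in inflammation, was at 12.6, 14.7, 16.0 and 18.6 CPM in unstimulated and 34.3, 48.4 and 45.3 CPM in LPS Δ/+ libraries. Its Δ/DN values were 10.5, 10.9, 20.1 and 12.5 CPM without and 34.6, 26.1, 49.3 and 33.4 CPM with LPS, and the groups did not overlap in either genotype. The log2 difference was 1.59 ± 0.18 (SE, adjusted p = 4.9e-06) in Δ/+ and 1.42 ± 0.17 (SE, adjusted p = 7.66e-06) in Δ/DN. The 3′ end of Cebpd overlaps Spidr on the other strand in the reference annotation, and the use of strand in counting was not stated. Spidr was at 10.0 to 16.7 CPM over all groups, with ranges that overlapped between US and LPS.

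Cebpb, the main C/EBP factor of activated myeloid cells, showed a smaller rise. It was at 161, 185, 159 and 244 CPM in unstimulated and 282, 327 and 276 CPM in LPS Δ/+ libraries, and the difference was 0.79 ± 0.26 on the log2 scale (SE, adjusted p = 0.0221). In Δ/DN it was at 98.2, 82.9, 254 and 106 CPM without and 224, 245, 218 and 231 CPM with LPS, a difference of 0.85 ± 0.24 (SE, adjusted p = 0.0103). The Δ/DN groups overlapped because the unstimulated library of culture 3, at 254 CPM, lay above all 4 LPS libraries. Cebpb was higher with LPS in 6 of 7 cultures and at 0.858 times its unstimulated level in culture 3. With both libraries of each culture paired, the Δ/+ difference was 0.81 with an adjusted p of 0.0531 and was no longer called. It was also lost without Δ/+ US replicate 1 (adjusted p = 0.0554) or 3 (0.0555) and without Δ/+ LPS replicate 2 (0.0753), and with no low count filter (0.0767) or no library set term (0.0853).

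Taken per kb and as shares of the 3 genes' sum, which do not depend on library scaling but do on the gene lengths used, the make-up of the C/EBP group differed between unstimulated and LPS libraries. Cebpa made up 15.2 ± 1.77% (SD, n = 4) in unstimulated and 1.53 ± 0.189% (SD, n = 3) in LPS Δ/+ libraries, and 20.9 ± 3.31% (SD, n = 4) and 2.65 ± 0.739% (SD, n = 4) in Δ/DN. Cebpb held 82.0 ± 2.0% (SD, n = 4) without and 93.1 ± 0.686% (SD, n = 3) with LPS in Δ/+, and 75.8 ± 3.78% (SD, n = 4) and 91.6 ± 2.24% (SD, n = 4) in Δ/DN. Cebpd held 2.74% and 3.29% without LPS and 5.40% and 5.77% with it, in Δ/+ and Δ/DN. The ranges of the unstimulated and LPS libraries did not overlap for any of the 3 genes in either genotype. With the lengths in the deposited files, where Cebpa is given more and Cebpd fewer bases relative to Cebpb, the Cebpb share was instead 78.1% without and 76.9% with LPS in Δ/+, and 72.2% and 75.2% in Δ/DN. Cebpa then held 8.79% and 0.768% in Δ/+ and 12.1% and 1.31% in Δ/DN, and Cebpd 13.1% and 22.3%, and 15.7% and 23.5%. So the lower Cebpa and higher Cebpd mean share with LPS did not depend on which lengths were used, RefSeq spans included, while the direction of the Cebpb share in Δ/+ did. These shares are given as a description with no test.

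**Figure D2:**
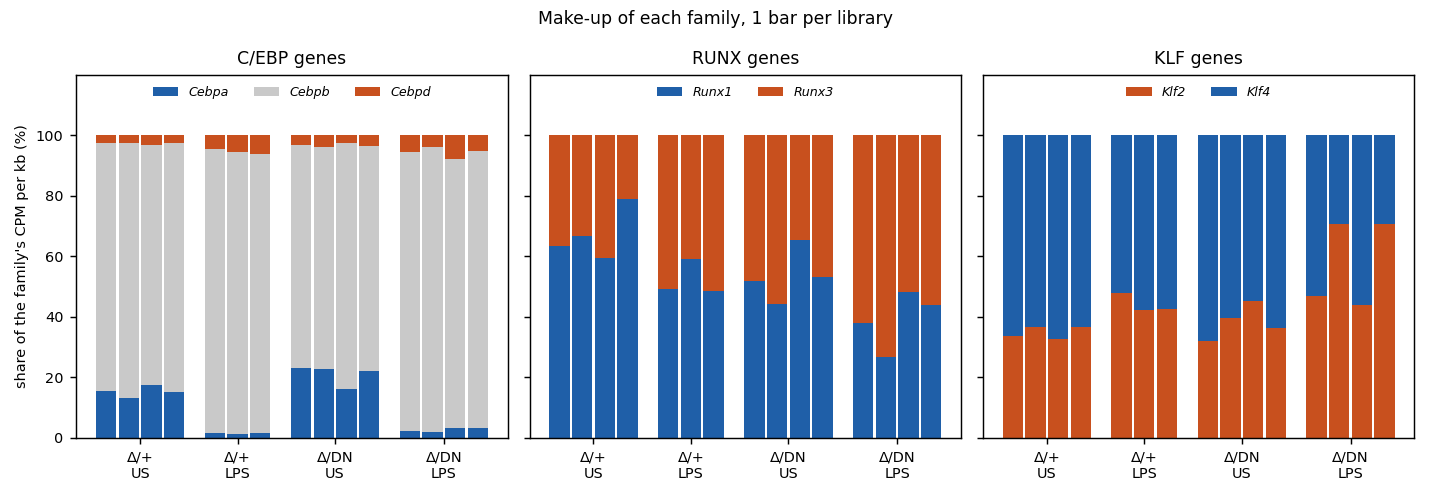
Share of each gene in the summed CPM per kb of its family, in percent, with 1 stacked bar per library in replicate order within each group. The Cebpa share is 13.1% to 23.0% in the unstimulated libraries and 1.33% to 3.30% in the LPS libraries, and the Runx3 share runs from 21.0% to 40.5% in unstimulated Δ/+ and from 51.7% to 73.4% in LPS Δ/DN libraries.

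Gfi1 rose the most, from a low level. It was at 0.480, 0.775, 1.06 and 0.407 CPM in unstimulated and 8.25, 7.85 and 12.7 CPM in LPS Δ/+ libraries. In Δ/DN it was at 1.02, 0.686, 0.403 and 1.81 CPM without and 21.6, 22.0, 14.8 and 17.2 CPM with LPS. No groups overlapped between treatments, and the rise within cultures was 9.54-fold to 36.7-fold. The log2 difference was 3.73 ± 0.43 (SE, adjusted p = 9.49e-06), 13.3-fold, in Δ/+ and 4.22 ± 0.41 (SE, adjusted p = 2.46e-06), 18.6-fold, in Δ/DN. Gfi1 is also expressed by neutrophil precursors. None of 14 neutrophil markers was without reads in all libraries of a group, and with LPS 1 of them rose (Csf3r) and 1 fell (Cxcr2) in each genotype. Their summed level in Δ/DN, without and with LPS, was 181 and 180 CPM in culture 1, 438 and 437 in culture 2, 212 and 238 in culture 3, and 1120 and 1260 in culture 4. In Δ/+ it was 133 and 115 CPM in culture 1, 136 and 138 in culture 2, and 179 and 165 in culture 3, and 215 CPM in the unstimulated library of culture 4. The part of these markers in the rise of Gfi1 was not tested.

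Ikzf1 rose to a high level. It was at 95.9, 88.1, 118 and 85.8 CPM in unstimulated and 299, 277 and 378 CPM in LPS Δ/+ libraries, and at 101, 108, 131 and 116 CPM and 429, 306, 399 and 262 CPM in Δ/DN. The lowest LPS library was above the highest unstimulated library in both genotypes. LPS gave a log2 difference of 1.71 ± 0.18 (SE, adjusted p = 1.97e-06) in Δ/+ and 1.61 ± 0.17 (SE, adjusted p = 1.97e-06) in Δ/DN. Gm11999, a gene next to the start of Ikzf1, was at 0.615 CPM or less in every library.

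Runx1 fell in both genotypes. It was at 139, 136, 128 and 169 CPM in unstimulated and 53.6, 58.5 and 51.0 CPM in LPS Δ/+ libraries, and at 108, 102, 125 and 129 CPM and 40.5, 46.4, 53.0 and 64.8 CPM in Δ/DN. No library of one treatment reached the range of the other. On the log2 scale the change was -1.30 ± 0.09 (SE, adjusted p = 6.87e-08), 2.46-fold lower, in Δ/+ and -1.19 ± 0.08 (SE, adjusted p = 6.39e-08), 2.28-fold lower, in Δ/DN. Its relative Runx3 was not called, at -0.57 ± 0.24 (SE, adjusted p = 0.0692) in Δ/+ and -0.30 ± 0.22 (SE, adjusted p = 0.283) in Δ/DN, although the Δ/+ value passed without Δ/DN LPS replicate 1 (adjusted p = 0.0323) or Δ/DN US replicate 4 (0.042). With cultures paired, Runx3 fell in both, at -0.65 (adjusted p = 0.00021) and -0.32 (adjusted p = 0.0111) on the log2 scale. Runx3 made up 32.8 ± 8.41% (SD, n = 4) of the summed per-kb level of the pair in unstimulated and 47.8 ± 5.93% (SD, n = 3) in LPS Δ/+ libraries, and 46.3 ± 8.64% (SD, n = 4) and 60.8 ± 9.41% (SD, n = 4) in Δ/DN. Gm30281, a non-coding gene within Runx1, was at 0.0436 CPM or less throughout.

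The KLF genes fell by smaller and less even amounts. Klf4 was at 40.1, 38.4, 40.3 and 71.4 CPM in unstimulated and 16.7, 22.9 and 14.1 CPM in LPS Δ/+ libraries, and at 38.2, 30.8, 34.8 and 50.2 CPM and 12.7, 7.0, 27.4 and 9.79 CPM in Δ/DN. The LPS library of Δ/DN culture 3 was the highest of its group and the groups still did not overlap. The log2 difference was -1.19 ± 0.33 (SE, adjusted p = 0.00928) in Δ/+ and -1.51 ± 0.30 (SE, adjusted p = 0.00102) in Δ/DN. With cultures paired the Δ/+ value was -1.18 and its adjusted p of 0.0501 missed the threshold. Klf2 fell by 0.62 ± 0.17 on the log2 scale (SE, adjusted p = 0.00794) in Δ/+, from 11.8 to 25.1 CPM without LPS to 6.31 to 10.1 CPM with it. In Δ/DN it fell by 0.40 ± 0.15 (SE, adjusted p = 0.0437), with overlapping ranges of 10.9 to 17.3 and 6.74 to 14.2 CPM. That call held in 8 of 26 alternative settings. Leaving out any library other than Δ/+ LPS replicate 2 or 3, Δ/+ US replicate 4 or Δ/DN LPS replicate 2 ended it, with an adjusted p of up to 0.14. Klf2 was nevertheless lower with LPS in all 7 cultures.

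Spi1 was not called with LPS. Its libraries lay at 212, 220, 246 and 275 CPM without and 186, 199 and 254 CPM with LPS in Δ/+, and at 184, 179, 298 and 192 CPM and 265, 240, 258 and 251 CPM in Δ/DN. The treatment groups overlapped in both genotypes, and Spi1 was higher with LPS in 4 and lower in 3 of 7 cultures. The log2 differences were -0.10 ± 0.15 (SE, adjusted p = 0.645) and 0.26 ± 0.14 (SE, adjusted p = 0.133). In Δ/DN, Spi1 was called higher with cultures paired (0.28, adjusted p = 0.0486) and without culture 3 (0.47, adjusted p = 0.00446), whose unstimulated library held the highest Spi1 level of its group.

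**Figure D3:**
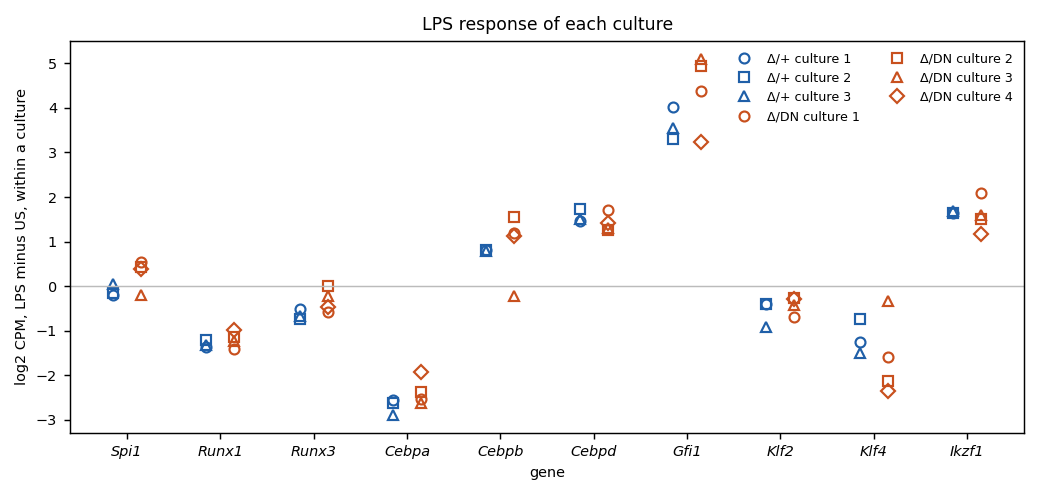
Log2 difference in CPM between the LPS and the US library of the same culture, for each gene and each of the 7 cultures with both. Cebpa spans -2.89 to -1.92 and Gfi1 3.24 to 5.11, and Δ/DN culture 3 is apart from the other Δ/DN cultures at -0.22 for Cebpb and -0.34 for Klf4.

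Between the genotypes few of the factors differed. Without LPS, 1 of the 10 genes was called, as lower in Δ/DN, beside 10.5% of all genes tested (5.01% higher and 5.45% lower). With LPS 1 of 10 was called, as higher, beside 8.6% (5.37% higher and 3.23% lower). Both shares are near those over all genes. Without LPS the genotype groups overlapped for all 10 genes, while they did not for 12.5% of all genes tested. Runx1 was lower in unstimulated Δ/DN than Δ/+ cells, at -0.39 ± 0.08 on the log2 scale (SE, adjusted p = 0.0148), 1.31-fold lower. The ranges overlapped only through the Δ/+ library at 128 CPM and the Δ/DN library at 129 CPM. With library set, a prefix of the library names whose meaning was not stated, left out of the model, the difference was -0.30 with an adjusted p of 0.186. The call was also lost without Δ/+ US replicate 4 (adjusted p = 0.0774), without Δ/DN US replicate 2 (adjusted p = 0.0630) and with scaling by total reads (-0.31, adjusted p = 0.179). With LPS Runx1 differed by -0.28 ± 0.10 (SE, adjusted p = 0.0835), and was called without Δ/DN LPS replicate 4 (-0.33, adjusted p = 0.0417).

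Runx3 was higher in LPS Δ/DN than LPS Δ/+ cells. It was at 23.1, 16.8 and 22.5 CPM in Δ/+ and at 27.7, 53.2, 23.6 and 34.3 CPM in Δ/DN, so every Δ/DN library was above every Δ/+ one, the nearest pair being 23.6 and 23.1 CPM. The log2 difference was 0.97 ± 0.26 (SE, adjusted p = 0.039), 1.96-fold. Without LPS Runx3 was at 33.2, 28.1, 36.1 and 18.7 CPM in Δ/+ and 41.5, 53.3, 27.6 and 47.3 CPM in Δ/DN, overlapping, with a difference of 0.70 ± 0.23 (SE, adjusted p = 0.0683) that passed without Δ/DN LPS replicate 1 (adjusted p = 0.0343). The call with LPS held in 14 of 26 alternative settings but in only 5 of 15 refits that left out 1 library. It ended without any 1 of the 7 Δ/+ libraries, Δ/DN LPS replicate 2 or 4, or Δ/DN US replicate 2, with an adjusted p of up to 0.174 and a difference of 0.71 or more. Without culture 3 it was 0.99 (adjusted p = 0.0289). The call also ended with no library set term (0.74, adjusted p = 0.142) and with no low count filter (0.97, adjusted p = 0.104). Library set 3 held 2 of the 4 Δ/DN LPS libraries and 0 of the Δ/+ LPS libraries, so the 2 genotypes with LPS were not balanced over the sets.

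Gfi1 was not called between the genotypes. Its LPS libraries were nevertheless apart, with all 4 Δ/DN values, from 14.8 to 22.0 CPM, above the Δ/+ values of 7.85 to 12.7 CPM. Groups did not overlap for 3 of the 10 genes with LPS (Runx3 and Gfi1 above and Cebpb below), and for 24.6% of all genes tested. The Gfi1 difference with LPS was 1.09 ± 0.42 (SE, adjusted p = 0.122). Without Δ/DN culture 4, the culture with the highest neutrophil markers, it was 1.27 and was called (adjusted p = 0.0126), as it was without the US library of that culture alone (1.31, adjusted p = 0.0131). Limma's voom with culture as a random block also called it (1.22, adjusted p = 0.00764), as did a fit to library set 2 only (1.18, adjusted p = 0.0239). It was called in 6 of 26 alternative settings, with an adjusted p of 0.00764 to 0.338. Of the 14 neutrophil markers only Csf3r was called between the genotypes, higher in Δ/DN by 1.21 ± 0.24 without LPS (SE, adjusted p = 0.0111) and 1.02 ± 0.27 with it (SE, adjusted p = 0.0348). The summed neutrophil markers were at 180 to 1260 CPM in LPS Δ/DN and 115 to 165 CPM in LPS Δ/+ libraries, and their part in the Gfi1 difference was not tested. In bulk RNA, more cells of a type and more RNA per cell cannot be told apart.

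The C/EBP genes and Spi1 did not pass the test between genotypes with all libraries, and several of these values moved when Δ/DN culture 3 was left out. Cebpb differed by -0.63 ± 0.25 (SE, adjusted p = 0.122) without LPS and by -0.58 ± 0.27 (SE, adjusted p = 0.199) with it. That culture held the highest unstimulated Spi1 and Cebpb of its group, so leaving it out lowers unstimulated Δ/DN for these genes by construction, and the values are a description. Without it Cebpb was at -0.99 ± 0.12 (SE, adjusted p = 0.000744) and -0.43 ± 0.13 (SE, adjusted p = 0.0401). In unstimulated cells Cebpd (-0.48, adjusted p = 0.0238), Spi1 (-0.39, adjusted p = 0.0272) and Runx3 (0.75, adjusted p = 0.0448) then passed as well, 5 of 10 with Runx1, where 17.9% of the 20709 genes tested did. With LPS, Cebpd (-0.53, adjusted p = 0.0275) and Klf4 (-1.02, adjusted p = 0.0207) passed beside Runx3 and Cebpb, 4 of 10, where 13.9% of all genes did. Leaving out the Δ/+ US library of culture 4 instead gave 0 of 10 in both genotype comparisons, with Cebpb at -0.62 (adjusted p = 0.332) and Spi1 at -0.22 (adjusted p = 0.565) without LPS. With all libraries Cebpd was at -0.34 (adjusted p = 0.23) without and -0.51 (adjusted p = 0.109) with LPS, and Klf4 at -0.42 (adjusted p = 0.405) and -0.73 (adjusted p = 0.206). Cebpa, Klf2 and Ikzf1 were not called between genotypes in any alternative setting.

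**Figure D4:**
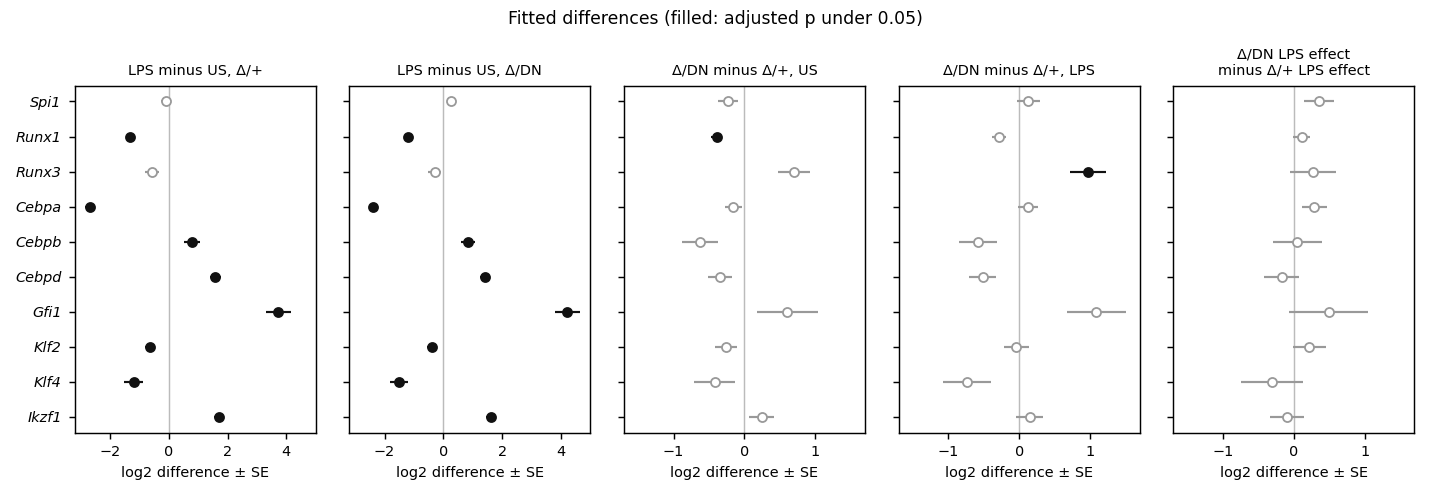
Fitted log2 differences with their SE for the 10 genes in the 5 comparisons, with filled points for an adjusted p under 0.05. The LPS panels have a wider axis than the others, and 8 points are filled in each LPS panel, 1 in each genotype panel and 0 in the interaction panel.

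No difference between the genotypes in the LPS response was detected for these genes. The interaction called 0 of the 10, beside 0.00479% of all genes tested, with 0 at an unadjusted p under 0.05, where 8.98% of all genes lay, and 0 by DESeq2. With the US and LPS libraries of each culture paired it called 156 of the 20865 genes tested. It called 0 of the 10 in any of the 26 alternative settings. The estimates ran from -0.31 ± 0.44 (SE, adjusted p = 0.889) for Klf4 to 0.49 ± 0.56 (SE, adjusted p = 0.86) for Gfi1. Their SEs, 0.12 for Runx1 to 0.56 for Gfi1, limit what size of difference could have been seen. Spi1 stood at 0.36 ± 0.21 (SE, adjusted p = 0.651) and Cebpa at 0.29 ± 0.18 (SE, adjusted p = 0.698).

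Among 31 paralogues and partners of the 10 genes, 26 passed the filter. With LPS 10 rose and 9 fell in Δ/+ and 9 rose and 9 fell in Δ/DN, with a median log2 difference of -0.13 and 0.14. Of all genes tested, 22.4% rose and 25.3% fell in Δ/+, and 23.1% and 25.1% in Δ/DN. Klf3, a repressor of the KLF family, rose by 0.84 ± 0.08 in Δ/+ (SE, adjusted p = 1.41e-06) and 0.99 ± 0.08 in Δ/DN (SE, adjusted p = 1.77e-07), while Klf16 fell, at -1.47 ± 0.15 (SE, adjusted p = 1.48e-06) and -1.26 ± 0.13 (SE, adjusted p = 2.25e-06). Klf13 fell by 1.00 ± 0.09 in Δ/+ (SE, adjusted p = 3.2e-07) and Ikzf5 rose by 0.98 ± 0.09 in Δ/DN (SE, adjusted p = 1.04e-06). Between genotypes 0 were higher and 6 lower in unstimulated Δ/DN cells, among them Klf13, Klf3, Klf10 and Klf9, at -0.34, -0.35, -0.74 and -0.71. Over all genes tested 5.01% were called higher and 5.45% lower without LPS, and 5.37% and 3.23% with it. With LPS 3 were higher, among them the corepressor gene Cbfa2t3 (1.32 ± 0.26, SE, adjusted p = 0.0141), and 3 lower, among them Klf10 (-1.03 ± 0.20, SE, adjusted p = 0.0141) and the PU.1 relative Spic (-1.46 ± 0.32, SE, adjusted p = 0.0175). Of these 26 genes, 0 were called in the interaction.

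Of 34 other transcription factors of myeloid and dendritic cell development, 33 were tested. LPS raised 15 and lowered 10 in Δ/+, and raised 12 and lowered 10 in Δ/DN. Of all genes tested, it raised 22.4% and lowered 25.3% in Δ/+, and raised 23.1% and lowered 25.1% in Δ/DN. Tcf4, a factor of plasmacytoid dendritic cells, rose by 2.99 ± 0.21 (SE, adjusted p = 6.56e-08) and 2.68 ± 0.20 (SE, adjusted p = 1.12e-07), and Myc fell, at -3.28 ± 0.26 (SE, adjusted p = 2.79e-07) and -2.37 ± 0.22 (SE, adjusted p = 1.24e-06), in Δ/+ and Δ/DN. Without LPS 2 were higher in Δ/DN, among them Lmo2, and 3 were lower, Ets2 (-0.93 ± 0.15, SE, adjusted p = 0.0055), Zeb2 (-0.67 ± 0.13, SE, adjusted p = 0.00901) and Id1 (-0.92 ± 0.19, SE, adjusted p = 0.0123). With LPS 2 were higher, Gata2 and Fli1, and 4 lower, among them Nfil3 and Meis1. Over all genes tested 5.01% were called higher and 5.45% lower in Δ/DN without LPS, and 5.37% and 3.23% with it.

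Genes known as targets of these factors were counted by factor. The lists were chosen with earlier results of these data known, so their counts are a description and no test of the factors. Of 26 C/EBP target genes, 14 rose with LPS and 0 fell in both genotypes, the same 14, with a median log2 difference of 1.97 in Δ/+ and 1.22 in Δ/DN beside -0.08 and -0.09 over all genes tested. They included Il6 (9.57 ± 0.61, SE, adjusted p = 1.03e-07, in Δ/+), Cxcl2 (5.91 ± 0.39, SE, adjusted p = 6.59e-08), Ccl3 (5.14 ± 0.36, SE, adjusted p = 1.06e-07) and Ptges, the gene for a prostaglandin E synthase (4.41 ± 0.26, SE, adjusted p = 2.71e-08). Of all genes tested, 22.4% were called higher and 25.3% lower with LPS in Δ/+, and 23.1% and 25.1% in Δ/DN. Whether C/EBP factors had a part in the rise of these genes was not tested. Of the 14, 1 was also a neutrophil marker, while 9 of the 26 were. The neutrophil granule genes of the list were not alike. In Δ/+, Elane (-0.39, adjusted p = 0.806) and Mpo (-0.55, adjusted p = 0.724) were not called, while Lcn2 was called higher (4.89 ± 0.73, SE, adjusted p = 0.000156). Between genotypes 1 C/EBP target was higher and 3 were lower in unstimulated Δ/DN cells, and 1 higher and 2 lower with LPS. Over all genes tested 5.01% were called higher and 5.45% lower without LPS, and 5.37% and 3.23% with it. Arg1, the gene for arginase, was lower in Δ/DN without and with LPS, at -2.32 ± 0.52 (SE, adjusted p = 0.0206) and -2.12 ± 0.57 (SE, adjusted p = 0.0423).

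The 24 PU.1 target genes were split. With LPS 9 rose and 6 fell in Δ/+, and 10 rose and 6 fell in Δ/DN. Of all genes tested, 22.4% rose and 25.3% fell in Δ/+, and 23.1% and 25.1% in Δ/DN. Cybb, a subunit gene of the phagocyte oxidase, rose by 1.89 ± 0.16 (SE, adjusted p = 3.45e-07) in Δ/+, and Csf1r, the receptor gene for M-CSF, fell by 1.08 ± 0.11 (SE, adjusted p = 1.42e-06). Between genotypes, the LPS receptor genes Cd14 (-1.61 ± 0.27, SE, adjusted p = 0.00642) and Tlr4 (-0.66 ± 0.12, SE, adjusted p = 0.00794) were lower in unstimulated Δ/DN cells, where 1 of the list was higher and 3 were lower. With LPS 3 were higher and 1 was lower. Over all genes tested 5.01% were called higher and 5.45% lower in Δ/DN without LPS, and 5.37% and 3.23% with it.

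Of 17 tested KLF target genes, 7 rose and 2 fell with LPS in each genotype. Of all genes tested, 22.4% rose and 25.3% fell in Δ/+, and 23.1% and 25.1% in Δ/DN. Between genotypes, 3 KLF targets without and 2 with LPS were lower in Δ/DN, with 0 higher in either, beside 5.45% and 3.23% of all genes tested called lower. Those 3 were Hif1a, Arg1 and Cd14, and the 2 were Hif1a and Arg1. Cd14 is also in the PU.1 list and Arg1 in the C/EBP list, so only Hif1a, at -0.64 in both (adjusted p = 0.0142 and 0.0246), had not been counted already. Thbd, the thrombomodulin gene, fell, at -2.55 (adjusted p = 0.00274) in Δ/+ and -1.98 (adjusted p = 0.00639) in Δ/DN, and Pparg, a nuclear receptor gene, at -1.57 (adjusted p = 1.25e-05) and -1.30 (adjusted p = 2.49e-05). No other gene of the list was called lower with LPS. Genes known to be repressed by GFI1 moved in both directions while Gfi1 rose, with 5 up and 4 down of 15 in Δ/+ and 5 up and 5 down in Δ/DN. Csf1 rose by 2.92 ± 0.20 (SE, adjusted p = 3.9e-08) and Id1 fell by 2.15 ± 0.21 (SE, adjusted p = 1.29e-06) in Δ/+. Between genotypes 1 of these 15 genes was higher and 1 lower in unstimulated Δ/DN cells, and 2 were higher and 2 lower with LPS. Over all genes tested 5.01% were called higher and 5.45% lower without LPS, and 5.37% and 3.23% with it. Cdkn2a was higher in Δ/DN by 2.17 ± 0.32 without LPS (SE, adjusted p = 0.0039) and 2.32 ± 0.36 with it (SE, adjusted p = 0.00513). The others were Id1 (-0.92) without LPS, and Pmaip1 (1.16), Meis1 (-1.05) and Egr1 (-1.04) with it. In the interaction 0 genes of these 4 target lists were called.

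Likeness of pattern was measured as the root mean square difference of centred log2 CPM over the 15 libraries, where 0 would be an identical pattern. Within the group the closest pair was Cebpd and Ikzf1, at 0.372, and the farthest Cebpa and Gfi1, at 3.45. Among all other genes tested, Runx1 was closest to Nop56 (0.118), Spi1 to Ptpn1 (0.112), Runx3 to Bcl9l (0.133) and Ikzf1 to Nfxl1 (0.136). Cebpd was closest to Ier5 (0.155), Cebpb to Esd (0.181), Klf2 to Tmem120a (0.209), Cebpa to Eps8 (0.247) and Klf4 to P2ry1 (0.252). Gfi1 had no close neighbour, the nearest being Gm32057 at 0.508.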

How the data were processed

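RNA from 15 BMDC libraries was sequenced after ribosomal RNA depletion. The authors deposited, for each library, the raw count of reads on every gene and the gene's length. Per the submitters' processing notes the tools included Trimmomatic 0.33, HISAT2 2.2.1 and featureCounts, with the builds mm39 and GRCm39. Whether counting used strand is not given in the sources used here.

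Group and replicate came from the sample titles. Counts were tested with edgeR 4.0.16 (limma 3.58.1, R 4.3.3): TMM, a filterByExpr minimum count of 10, 4 groups plus library set (2 or 3) in 1 model of all 15 libraries, and quasi-likelihood F tests adjusted over 20865 genes. Set 2 held 10 libraries and set 3 held 5, with 0 of Δ/+ LPS. The 5 comparisons were the genotypes without and with LPS, LPS within each genotype, and their interaction. The fits were also run on simulated counts, which held no culture pairing, no library set effect and far fewer changed genes than LPS changed here. That run does not bear on how the calls depend on pairing, library set or scaling. Alternatives, among them DESeq2 1.42.0, are given in the closing section.

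The members and gene lists were chosen with earlier results of these data known. All 10 members are named. Of each list, up to 4 called genes with the smallest p could be named in each comparison. Elane, Mpo, Lcn2, Thbd and Pparg were named after their values were seen. For each member the 3 genes with the most similar pattern were found, and the first is named. Library names tie the US and LPS library of a culture together. Their deviations from group means correlated at 0.0643 to 0.428 over 7 pairs, so paired values stand beside LPS results that they change.

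The deposited gene lengths exceeded the RefSeq gene span in 11.0% of 48903 matched genes. The 13180 bases given for Cebpa, for instance, compare with a span of 2636. Per-kb levels therefore used exon unions of GENCODE vM21 (GRCm38), a choice made after seeing the data. For Cebpd the exon union, 3746 bases, was itself above the RefSeq span and the deposited length, both 2260 bases. Promoters are from RefSeq for GRCm38.p6, which is not the authors' build. Those of Spi1 and Cebpd were not analysed here.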

Additional observations from a re-analysis of the deposited data

Results flagged for a closer look

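In the 30 groups of 4 libraries examined (10 genes in 3 groups), 4 values, from 2 libraries, lay far from the rest of their group, where chance marks about 1 group in 20. The unstimulated library of Δ/DN culture 3 was the highest of its group for Spi1, at 298 CPM, and for Cebpb, at 254 CPM. The unstimulated library of Δ/+ culture 4, the only Δ/+ library of library set 3, was the highest of its group for Klf2, at 25.1 CPM, and for Klf4, at 71.4 CPM. Their cause was not tested.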

How the results depend on the processing

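Each comparison was refitted under 26 alternative settings, of which scaling by total reads was chosen after seeing the data. Leaving out each library in turn gave 0 to 5 called members without LPS and 0 to 2 with LPS between the genotypes, 7 to 9 for LPS in Δ/+, 7 to 8 for LPS in Δ/DN and 0 for the interaction. Over all genes these refits called 174 to 3403 and 90 to 2233 between the genotypes, 8742 to 10176 and 8955 to 10170 for LPS, and 0 to 15 for the interaction. Between genotypes, without and with LPS, the members called were 4 and 4 with the replicate number as a block, 2 and 2 with voom and culture as a random block, 2 and 2 with DESeq2, 0 and 0 with no library set term, 2 and 2 in library set 2 only, 5 and 4 without Δ/DN culture 3, and 2 and 3 without Δ/DN cultures 3 and 4. Scaling by total reads gave 0 without LPS, no low count filter gave 0 with LPS, and leaving out Δ/DN culture 4 gave 3 with LPS.

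Over all genes the block called 3994 and 3809, DESeq2 3460 and 3017, and the fit without culture 3 called 3705 and 2878, without and with LPS. Without LPS there were 1270 with no library set term, 1271 in set 2 only, 1417 without cultures 3 and 4 and 1383 with total reads. The interaction called 156 genes with the US and LPS libraries of each culture paired and 118 by DESeq2. It called 34 with no low count filter, 4 in set 2 only, 44 without culture 3, 2 without culture 4, 9 without both and 0 with total reads. Replicate numbers across genotypes share only a number (correlations of -0.0885 to 0.146), which bears on the block in the genotype comparisons. Within a genotype they name a culture, and the LPS and interaction fits were blocked by culture. With cultures paired, Cebpb and Klf4 lost their LPS call in Δ/+, while Runx3 gained a call in both genotypes and Spi1 in Δ/DN. Of the members' values that a setting called, 1 had turned round, Spi1 with LPS in Δ/DN at -0.30 with total reads. Values near 0 that no setting called also changed sign, among them Klf2 between genotypes with LPS, at 0.37 with no library set term. Cebpa, Runx1, Cebpd, Gfi1 and Ikzf1 kept their LPS calls in both genotypes under all 26 settings. With deposited gene lengths in place of exon unions the Cebpb share, without and with LPS, was 78.1% and 76.9% in Δ/+ and 72.2% and 75.2% in Δ/DN, so its direction in Δ/+ turned round. With RefSeq gene spans the Cebpd share was 4.50% and 8.72% in Δ/+ and 5.37% and 9.28% in Δ/DN, without and with LPS. The causes of these changes were not tested.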
